A study of Homo sapiens with 4 samples.

Results

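The imprinted clusters examined here are stretches of chromosome 15 and chromosome 11 in which several genes are expressed from only the maternal or only the paternal copy. Members were all 3′ end positions, on both strands, between bases 25060000 and 25700000 of chromosome 15 and between bases 2010000 and 2910000 of chromosome 11 (hg19). These windows of 640 and 900 kb held 721 of the 1749181 positions of the 4 libraries. The chromosome 15 window had 98 positions on the plus strand and 219 on the minus strand. The chromosome 11 window had 191 on the plus strand and 213 on the minus strand. The CF Im 68 library listed 300 member positions, the CstF-64 library 188, the control siRNA library 335 and the no siRNA library 287.

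The positions were mapped by A-seq, which sequences RNA fragments that end at the poly(A) tail, in HEK293 cells, an established human embryonic kidney line. One library came from cells given an siRNA against CF Im 68, one from cells given an siRNA against CstF-64, one from cells given a control siRNA and one from cells given no siRNA. The siRNAs acted for 3 days before harvest. CF Im 68 belongs to cleavage factor I, and CstF-64 binds RNA within the cleavage stimulation factor, and both complexes help to cut pre-mRNA before the tail is added. Each group had 1 library, so no difference below has a replicate check. The exact 95% intervals cover counting error only, and PCR copies could not be told from separate molecules. The difference between the control siRNA and no siRNA libraries is given beside the results as background.

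Genomic imprinting is set by DNA methylation that differs between eggs and sperm and is kept through cell divisions. On chromosome 15, the paternal copy produces SNRPN, which encodes an Sm protein, and SNHG14, a long host transcript of many small nucleolar RNAs. The end of SNHG14 runs antisense to UBE3A, a ubiquitin ligase gene that neurons express from the maternal copy. On chromosome 11, the maternal copy produces the non-coding RNA H19 and the cell cycle inhibitor CDKN1C, and the paternal copy produces the growth factor IGF2 and the antisense RNA KCNQ1OT1. Read counts do not separate the maternal from the paternal copy.

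The sequences that define the experiment and a mature small RNA pair hosted by a measured transcript of these windows are shown first. The siRNA strands are spelled as in the labels, where n is a base not specified. The adaptor is preceded by 6 bases of the tail, in capitals, which mark a read as coming from a transcript end. H19 hosts miR-675, whose 5p and 3p arms are given from RefSeq (GRCh38.p14, minus strand) with the seed, bases 2 to 8, in capitals.
CF Im 68 siRNA: nngaccgagauuacauggaua
CstF-64 siRNA: nnccugaaugggcgcgaauuc
3′ adaptor: AAAAAAtggaattctcgggtgccaagg
hsa-miR-675-5p: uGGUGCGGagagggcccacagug
hsa-miR-675-3p: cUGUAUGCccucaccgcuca
The seeds of both arms differ, and A-seq measures the polyadenylated host, not the mature miRNA.

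The CF Im 68 library had 12792623 reads in all, the CstF-64 library 7343112, the control siRNA library 13443454 and the no siRNA library 15806975. Mitochondrial reads made up 3.75%, 1.79%, 1.53% and 1.17% of these libraries, in the same order. Levels below are in RPM, the reads at a position or gene for every 1000000 reads of the library. Positions within 25 nt of a more used position were joined into a cluster, which gave 484 clusters in both windows. A cluster with a mean of at least 1 RPM over the libraries is called a site, and 14 of the 33723 sites of the genome lay in the windows. Bulk counts cannot tell fewer cells with a transcript from less transcript per cell.

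Gene names on chromosome 11 came from the strand, order and spacing of the ends, set against the RefSeq gene table. The H19 end served as the anchor. Of the other 10 named ends, 8 lay within 3 nt of the tabulated spacing, among them CD81 at 402219 nt against 402221 nt and CDKN1C at 888042 nt in both. The end named TSPAN32 differed by -65 nt and the end named KCNQ1 by -116 nt. On chromosome 15, the 5 sites were named UBE3A because they formed 1 group on the minus strand, where the named gene lies. Exon and UTR annotation on hg19 was not used here.

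The windows were dominated by one strand each. The chromosome 15 minus strand had 657, 391, 640 and 830 reads after CF Im 68 siRNA, CstF-64 siRNA, control siRNA and no siRNA, which equalled 51.4, 53.2, 47.6 and 52.5 RPM. The plus strand of that window had 41, 22, 71 and 26 reads, or 3.20, 3.00, 5.28 and 1.64 RPM. The minus strand thus held 94.1% of the window's reads after CF Im 68 siRNA, 94.7% in the CstF-64 library, 90.0% after control siRNA and 97.0% without siRNA. On chromosome 11 the order was turned round. The plus strand had 328, 321, 349 and 337 RPM, from 4198, 2355, 4690 and 5320 reads. The minus strand, which carries H19, IGF2, KCNQ1OT1 and CDKN1C, had 15.5, 11.7, 27.0 and 22.7 RPM, from 198, 86, 363 and 359 reads. It held 4.50%, 3.52%, 7.18% and 6.32% of the window's reads.

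**Figure D1:**
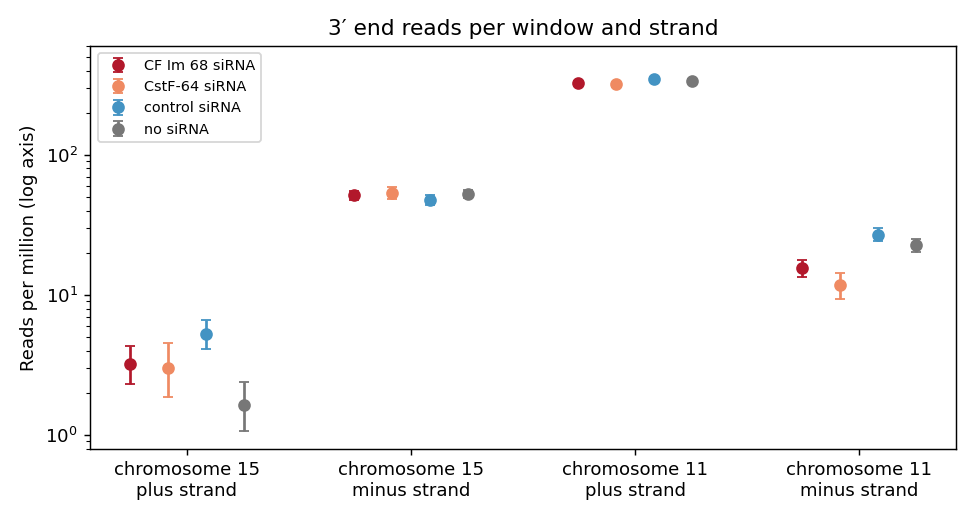
RPM (log axis) of each window and strand in the 4 libraries, with exact 95% Poisson intervals. On the chromosome 11 minus strand the CF Im 68 and CstF-64 libraries, at 15.5 and 11.7 RPM, lie below the control siRNA and no siRNA libraries, at 27.0 and 22.7 RPM.

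The chromosome 11 minus strand was lower in both depleted libraries than in either control library. The ratio of CF Im 68 siRNA to control siRNA was 0.573 (0.480 to 0.683), and to no siRNA 0.681 (0.570 to 0.813). For CstF-64 siRNA the ratios were 0.434 (0.339 to 0.550) and 0.516 (0.403 to 0.654). The control libraries differed by a ratio of 1.19 (1.02 to 1.38), control siRNA over no siRNA. Set against no siRNA, the CF Im 68 difference on this strand lay at CDKN1C, with 3.36 against 12.3 RPM. H19 was at 3.36 against 2.97 RPM, and the clusters that were not sites summed to 8.76 against 7.47 RPM. The other large strands moved less. The chromosome 15 minus strand gave 1.08 (0.966 to 1.20) for CF Im 68 siRNA and 1.12 (0.984 to 1.27) for CstF-64 siRNA, both over control siRNA. The chromosome 11 plus strand gave 0.941 (0.902 to 0.981) and 0.919 (0.875 to 0.966), and the CstF-64 ratio exceeded 1 under other scalings of the libraries.

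On the chromosome 15 plus strand, the strand of SNRPN and the small nucleolar RNA hosts, no cluster reached a mean of 1 RPM over the libraries. Its 160 reads fell on 98 positions, of which 87 had 1 read over all libraries. That was 88.8% of positions, against 66.9% over the whole genome. The position with the most reads, base 25284811, had 0, 0, 29 and 0 reads after CF Im 68 siRNA, CstF-64 siRNA, control siRNA and no siRNA, so 1 library supplied it. The cluster at base 25069210 had 9, 5, 5 and 1 reads, and the cluster at base 25346470 had 1, 1, 3 and 1 reads. The strand as a whole was at 0.607 (0.403 to 0.904) in CF Im 68 siRNA over control siRNA, and at 1.95 (1.16 to 3.32) over no siRNA. Control siRNA over no siRNA was 3.21 (2.02 to 5.24), a wider gap than either. The control siRNA total of 71 reads included the 29 reads at base 25284811. Without that base the log2 ratio of CF Im 68 siRNA to control siRNA was 0.04, and control siRNA over no siRNA was not recomputed. The authors' running numbers skipped 1, 2, 1 and 2 positions on this strand. Such a position could have held any number of reads.

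UBE3A had about equal totals in the 4 libraries, but after CF Im 68 siRNA more of its reads ended at the sites nearest the 5′ side. The gene had 570, 340, 534 and 743 reads after CF Im 68 siRNA, CstF-64 siRNA, control siRNA and no siRNA, or 44.6, 46.3, 39.7 and 47.0 RPM. The CF Im 68 total was 1.12 (0.995 to 1.26) times control siRNA and 0.948 (0.848 to 1.06) times no siRNA. The CstF-64 total was 1.17 (1.01 to 1.34) and 0.985 (0.864 to 1.12) times those libraries. Control siRNA was 0.845 (0.755 to 0.946) times no siRNA, so the control libraries differed from each other by at least as much.

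The reads counted for UBE3A were those of 5 sites, numbered from the 5′ side, that spanned 1253 nt. Weak clusters at bases 25582436 and 25582334, with 34 and 15 reads over the libraries, were not counted. Site 1, at base 25583650, had 48, 13, 14 and 17 reads after CF Im 68 siRNA, CstF-64 siRNA, control siRNA and no siRNA, or 3.75, 1.77, 1.04 and 1.08 RPM. Site 2, at base 25583569 and 81 nt downstream, had 107, 25, 25 and 58 reads, or 8.36, 3.40, 1.86 and 3.67 RPM. At both sites the CF Im 68 library was the highest of the 4. Site 1 was 3.60 (1.95 to 7.08) times control siRNA and site 2 was 4.50 (2.89 to 7.26) times control siRNA. Site 2 was 2.28 (1.64 to 3.19) times no siRNA, while control siRNA was 0.507 (0.304 to 0.823) times no siRNA there.

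The distal sites held most UBE3A reads in every library. Site 3, at base 25582922, was low, with 1.72, 1.09, 1.86 and 2.21 RPM. Site 4, at base 25582634 and 1016 nt from site 1, had 202, 166, 261 and 390 reads, or 15.8, 22.6, 19.4 and 24.7 RPM. Site 5, at base 25582397, had 191, 128, 209 and 243 reads, or 14.9, 17.4, 15.5 and 15.4 RPM. Site 4 was lowest after CF Im 68 siRNA, at 0.813 (0.673 to 0.981) times control siRNA and 0.640 (0.537 to 0.760) times no siRNA. Site 5 after CF Im 68 siRNA was 0.960 (0.785 to 1.17) times control siRNA and 0.971 (0.799 to 1.18) times no siRNA. In the 4 libraries, sites 1 and 2 together had 12.1, 5.17, 2.90 and 4.74 RPM, and sites 4 and 5 together had 30.7, 40.04, 34.96 and 40.05 RPM.

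**Figure D2:**
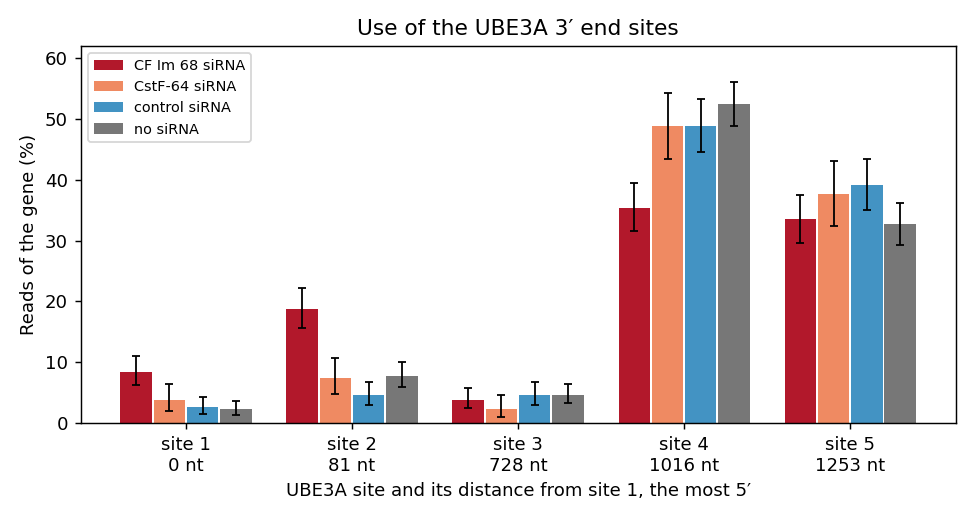
Share of UBE3A reads (%) at each of its 5 sites in the 4 libraries, with exact 95% Clopper-Pearson intervals. Site 2 held 18.8% of reads after CF Im 68 siRNA, 7.35% in the CstF-64 library, 4.68% after control siRNA and 7.81% without siRNA.

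As shares of the gene, sites 1 and 2 together held 27.2% of UBE3A reads after CF Im 68 siRNA (23.6 to 31.0%). They held 11.2% after CstF-64 siRNA (8.03 to 15.02%), 7.30% after control siRNA (5.24 to 9.85%) and 10.1% without siRNA (8.02 to 12.5%). The CF Im 68 interval did not overlap the others, but these intervals cover counting error only. Sites 1 and 2 were joined for UBE3A alone, so no share over all loci stands beside this value, and it is not a test. The read-weighted mean end lay 823 nt from site 1 in the CF Im 68 library, 991 nt in the CstF-64 library, 1025 nt in the control siRNA library and 984 nt in the no siRNA library. Within 100 nt of these sites the running numbers skipped 1, 1, 2 and 1 positions in the 4 libraries.

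**Figure D3:**
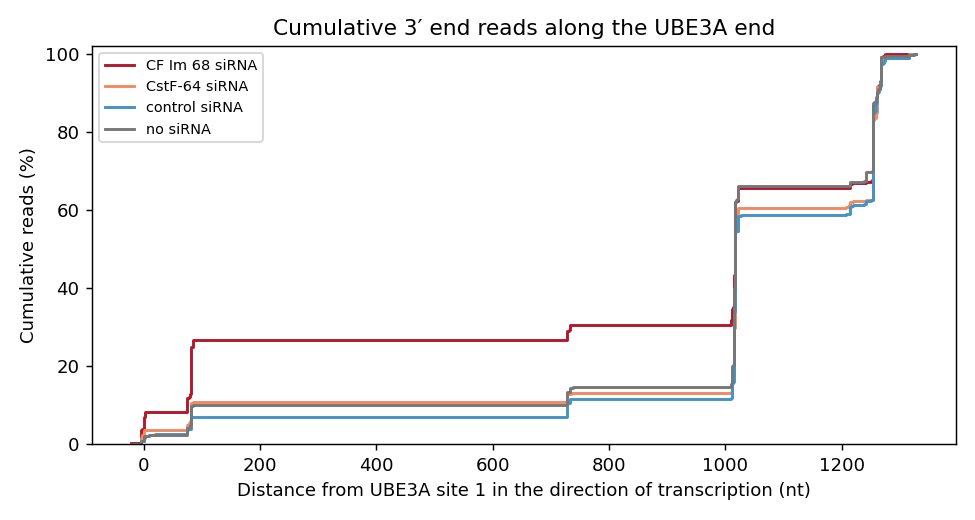
Cumulative share of all reads along the UBE3A end (%) by distance from site 1 in the direction of transcription (nt), 1 line per library. Weak clusters are included. The CF Im 68 line steps up within the first 100 nt. At 84 nt it stands at 26.8%, against 10.9% in the CstF-64 library, 7.04% after control siRNA and 9.93% without siRNA.

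The share of the most 5′ site was compared between libraries in every locus of the genome with at least 2 sites that each held 5% of its reads. This measure was chosen after seeing the data. The planned comparison, of UBE3A sites 4 and 5, left out sites 1 and 2, which had been seen to differ. Depleted libraries also took part in choosing sites. For UBE3A the measure set site 2 against sites 2, 4 and 5, since site 1 fell under 5%. Site 2 held 21.4% after CF Im 68 siRNA (17.9 to 25.3%), 7.84% in the CstF-64 library (5.14 to 11.4%), 5.05% after control siRNA (3.30 to 7.37%) and 8.39% without siRNA (6.44 to 10.7%). The share rose by 16.4 points over control siRNA (two-sided Fisher's exact test, Benjamini-Hochberg over 4984 loci, adjusted p = 4.7e-14). It rose by 13.01 points over no siRNA (adjusted p = 1.1e-09 in the same exact test). This compares libraries, not conditions, and the p-values describe a difference seen before the measure was chosen. A change of at least 10 points against both control libraries counted as moved, which held for 26.9% of the 4984 loci in the direction of UBE3A and for 1.99% in the other. UBE3A was thus 1 of 1339 loci. After CstF-64 siRNA the difference from control siRNA was 2.79 points (adjusted p = 0.301 in the same exact test), and from no siRNA -0.557 points (adjusted p = 0.892), and UBE3A did not move, against 6.34% of loci that did in the same direction as after CF Im 68 siRNA and 2.99% in the other. Control siRNA differed from no siRNA by -3.34 points (adjusted p = 0.0736 in the same exact test), against 7.38% of loci called higher and 7.91% called lower between these 2 libraries.

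The 2 most used UBE3A sites, 4 and 5, lay 237 nt apart and were compared as a pair, which was the planned comparison. Site 4 held 51.4% of their reads after CF Im 68 siRNA, 56.5% in the CstF-64 library, 55.5% after control siRNA and 61.6% without siRNA. The CF Im 68 library differed from control siRNA by -4.13 points (Fisher's exact test over 4793 pairs, adjusted p = 0.333) and from no siRNA by -10.2 points (adjusted p = 0.00282). The pair was not counted as moved, against 24.2% of pairs that moved toward the 5′ site and 2.63% that moved away from it after CF Im 68 siRNA. In the CstF-64 library these shares of pairs were 8.2% and 3.59%, and the UBE3A pair was not among them.

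CDKN1C, which encodes an inhibitor of cyclin-dependent kinases, was lower after both depletions. Its 2 sites, 364 nt apart, had 43, 27, 155 and 194 reads in all after CF Im 68 siRNA, CstF-64 siRNA, control siRNA and no siRNA, or 3.36, 3.68, 11.5 and 12.3 RPM. Both depleted libraries lay below both control libraries. The ratio to control siRNA was 0.292 (0.203 to 0.411) for CF Im 68 siRNA and 0.319 (0.204 to 0.482) for CstF-64 siRNA. Over no siRNA the ratios were 0.274 (0.192 to 0.383) and 0.300 (0.192 to 0.450). Control siRNA was 0.939 (0.756 to 1.17) times no siRNA, so the control libraries did not differ beyond counting error. The running numbers near the sites skipped 2 positions in the no siRNA library and none in the other libraries.

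In RPM, the CDKN1C difference lay mainly at its distal site, which held most of its reads in every library. Site 2, at base 2904450, had 28, 26, 127 and 173 reads after CF Im 68 siRNA, CstF-64 siRNA, control siRNA and no siRNA, or 2.19, 3.54, 9.45 and 10.9 RPM. Site 1, at base 2904814, had 15, 1, 28 and 21 reads, or 1.17, 0.136, 2.08 and 1.33 RPM. The single CstF-64 read gave a ratio of 0.0654 (0.00160 to 0.395) to control siRNA, against 0.375 (0.236 to 0.575) at site 2. Site 1 thus held 34.9% of the gene's reads after CF Im 68 siRNA (21.01 to 50.9%), 3.70% in the CstF-64 library (0.0937 to 18.97%), 18.1% after control siRNA (12.4 to 25.0%) and 10.8% without siRNA (6.83 to 16.1%). The share was not tested in the genome-wide fit, which asked for 50 reads in every library. At a limit of 20 reads the difference of 16.8 points between CF Im 68 siRNA and control siRNA had an adjusted p of 0.0436 (Fisher's exact test over 6165 loci), and CDKN1C was then 1 of 1625 loci that moved this way. The CstF-64 library differed from control siRNA by -14.4 points at that limit (adjusted p = 0.239 in the same exact test).

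H19 ended at 1 site, base 2016408, with 43, 13, 80 and 47 reads after CF Im 68 siRNA, CstF-64 siRNA, control siRNA and no siRNA. These were 3.36, 1.77, 5.95 and 2.97 RPM. The control siRNA library stood apart from the no siRNA library by a ratio of 2.001 (1.38 to 2.93), so the direction after CF Im 68 siRNA depended on the library it was set against. CF Im 68 siRNA was 0.565 (0.381 to 0.828) times control siRNA but 1.13 (0.730 to 1.75) times no siRNA. CstF-64 siRNA was 0.297 (0.152 to 0.538) and 0.595 (0.296 to 1.12) times those libraries. One position held 100%, 100%, 98.8% and 95.7% of the reads at this site in the 4 libraries.

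KCNQ1, a voltage-gated potassium channel gene that is imprinted in embryonic tissue, ended at base 2870221 on the plus strand. It had 40, 14, 110 and 99 reads after CF Im 68 siRNA, CstF-64 siRNA, control siRNA and no siRNA, or 3.13, 1.91, 8.18 and 6.26 RPM. Both depleted libraries were below both control libraries, with CstF-64 siRNA the lowest. The ratios of CstF-64 siRNA were 0.233 (0.123 to 0.408) to control siRNA and 0.304 (0.161 to 0.535) to no siRNA. Those of CF Im 68 siRNA were 0.382 (0.259 to 0.553) and 0.499 (0.337 to 0.728). Control siRNA was 1.31 (0.987 to 1.73) times no siRNA.

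**Figure D4:**
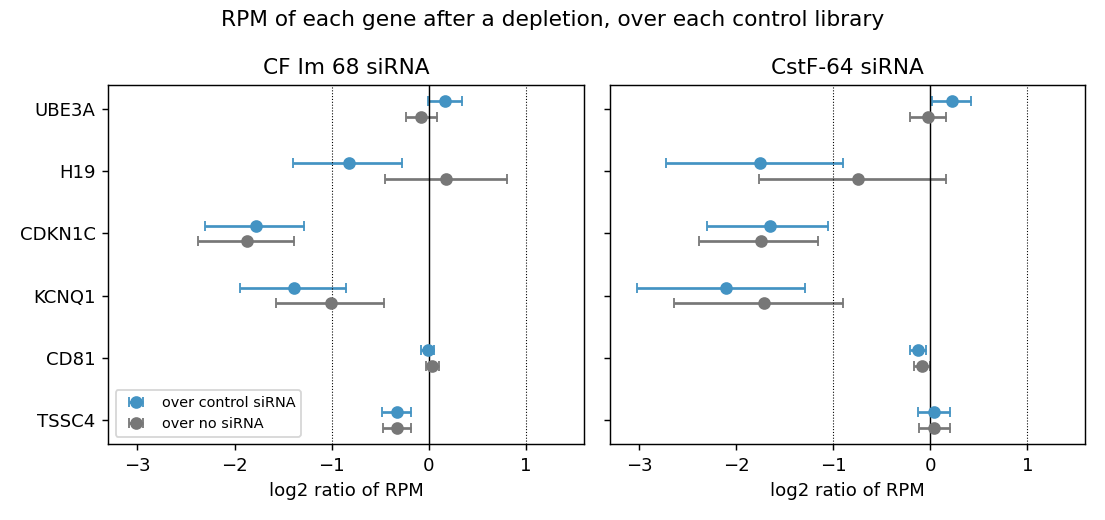
Log2 ratio of RPM for 6 genes after CF Im 68 siRNA (left) and CstF-64 siRNA (right), over control siRNA and over no siRNA, with exact 95% intervals; dotted lines mark 2-fold. CDKN1C lies below the 2-fold line in both panels, with ratios of 0.292 and 0.319 to control siRNA, and UBE3A lies near 0.

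CD81 and TSSC4, neighbours between the 2 imprinted domains of chromosome 11, made up nearly all plus-strand reads. CD81, a tetraspanin of the cell surface, had 270, 249, 272 and 263 RPM after CF Im 68 siRNA, CstF-64 siRNA, control siRNA and no siRNA. CF Im 68 siRNA was 0.994 (0.948 to 1.04) times control siRNA. TSSC4, a protein that takes part in assembling a spliceosomal particle, had 661, 490, 872 and 1024 reads, or 51.7, 66.7, 64.9 and 64.8 RPM. CF Im 68 siRNA was 0.797 (0.719 to 0.882) times control siRNA and 0.798 (0.722 to 0.880) times no siRNA, while CstF-64 siRNA was 1.03 (0.919 to 1.15) times control siRNA.

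CD81 used one site for nearly all reads. Site 3, at base 2418627, held 96.4%, 97.8%, 95.9% and 95.4% of the gene's reads in the 4 libraries, from 3330, 1784, 3503 and 3972 reads. Its 33 positions spread over 50 nt, and the most used one held 64.02%, 65.8%, 64.7% and 67.4% of the site. The weaker sites 1 and 2, at bases 2418214 and 2418574, had 1.63 to 3.99 RPM. Site 4, at base 2419028 and 814 nt from site 1, had 42, 11, 69 and 81 reads, or 3.28, 1.498, 5.13 and 5.12 RPM. Site 4 was 0.292 (0.139 to 0.555) times control siRNA after CstF-64 siRNA, and 0.640 (0.425 to 0.952) times control siRNA after CF Im 68 siRNA. CD81 site 3 and TSSC4 fell within 10 kb of each other and formed 1 locus by the grouping rule. Its shift of 3.37 points after CF Im 68 siRNA (Fisher's exact test, adjusted p = 0.000223) is a difference between 2 genes.

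Calls were made on log2(RPM + 1), as past 2-fold in the same direction against both control libraries. After CF Im 68 siRNA, 2 of the 14 sites were called higher, UBE3A sites 1 and 2, against 8.57% of all sites. CDKN1C site 2 was called lower, against 1.73% of all sites. UBE3A site 2 was only just past the limit over no siRNA, at a log2 ratio of 1.004, and its call was lost under other scalings of the libraries. After CstF-64 siRNA, 0 of the 14 sites were called higher, against 1.65% of all sites. The 4 called lower were CD81 site 4, KCNQ1 and both CDKN1C sites, against 5.07%. With DESeq2 size factors CDKN1C site 2 was at a log2 ratio of -0.998 to control siRNA after CstF-64 siRNA, and its call was lost. At the level of loci, CDKN1C was called lower after CF Im 68 siRNA, 1 of 5 loci against 1.86%, and none was called higher, against 5.02%. After CstF-64 siRNA, CDKN1C and KCNQ1 were called lower, 2 of 5 loci against 6.11%, and none higher, against 1.82%. For CDKN1C the log2 ratios were -1.52 and -1.61 after CF Im 68 siRNA, over control siRNA and no siRNA, and -1.42 and -1.50 after CstF-64 siRNA. KCNQ1 was at -1.15 and -0.82 after CF Im 68 siRNA and so was not called, and at -1.66 and -1.32 after CstF-64 siRNA. On this scale no member site differed by 2-fold between control siRNA and no siRNA, against 4.62% of all sites higher and 1.8% lower.

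**Figure D5:**
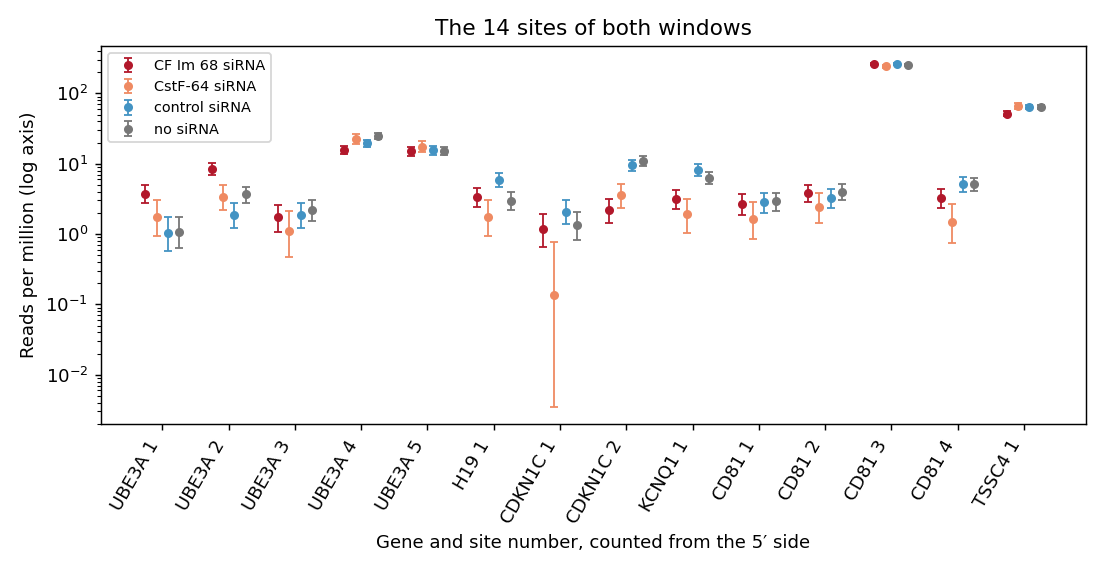
RPM (log axis) at each of the 14 sites in the 4 libraries, with exact 95% Poisson intervals; sites are numbered from the 5′ side. UBE3A sites 1 and 2 are highest in the CF Im 68 library, at 3.75 and 8.36 RPM, and CDKN1C site 2 is at 2.19 and 3.54 RPM in the depleted libraries, against 9.45 and 10.9 RPM in the control libraries.

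The median log2 ratio of the 14 sites was -0.18 for CF Im 68 siRNA over control siRNA and -0.38 for CstF-64 siRNA over control siRNA. Over all 33723 sites the medians were 0.04 and -0.14. Over no siRNA the members' medians were -0.10 after CF Im 68 siRNA and -0.53 in the CstF-64 library, against 0.18 and -0.04 over all sites. Control siRNA over no siRNA gave -0.01 for the members and 0.10 for all sites.

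The remaining chromosome 11 genes whose ends were looked up by spacing had few or no reads there. Ends of chromosome 15 genes were not looked up this way. Within 150 nt of the end of IGF2, the paternal growth factor, the libraries had 4, 1, 6 and 1 reads after CF Im 68 siRNA, CstF-64 siRNA, control siRNA and no siRNA. ASCL2, a transcription factor of the placenta, had 1, 0, 5 and 9 reads within 150 nt of its end. Another minus-strand cluster nearby, at base 2289924, lay outside that distance and had 2, 0, 4 and 8 reads. Whether it belonged to ASCL2 was not tested. INS, TH, TSPAN32 and KCNQ1DN had 1 read each over all libraries. No read was listed at the ends of C11orf21, TRPM5 or KCNQ1OT1. A count of 0 allows up to 3 reads, or 0.235, 0.409, 0.223 and 0.190 RPM in the 4 libraries. Along the 91.7 kb of KCNQ1OT1, the antisense RNA of the paternal copy, its strand had 18, 7, 15 and 6 reads on 33 positions, 26 of them with 1 read. The opposite strand had 4, 1, 2 and 1 reads there. In all these were 46 and 8 reads. Over the whole 900 kb window, clusters that were not sites had 404 reads on the minus strand and 157 on the plus strand. Whether the reads in the span came from KCNQ1OT1 was not tested.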

How the data were processed

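Polyadenylated 3′ ends of HEK293 RNA were sequenced by A-seq in 4 libraries, 1 per group. The authors deposited raw read counts for each stranded 3′ end position. The submitters' processing notes name hg19 (GRCh37), and positions are written 1-based. The aligner and the treatment of multiple matches and PCR copies are not given in the sources used here. Gaps in the running numbers that the authors gave positions left out 11.3% of numbers in the CF Im 68 library, 10.2% in the CstF-64 library, 10.8% in the control siRNA library and 12.2% in the no siRNA library. Oligo-dT priming inside transcripts was not separated from true ends.

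RPM, clusters of 25 nt, sites of at least 1 RPM, loci of 10 kb (at least 50 reads), exact conditional binomial intervals of ratios, Clopper-Pearson intervals of shares and Fisher's exact tests were computed with Python 3.11.15 and scipy 1.17.1. The calls of moved shares were checked on simulated reads with known shares, and the clustering on a known layout. Folds used a pseudocount of 1 RPM. Moved shares needed an adjusted p below 0.05 against control siRNA and at least 10 points against both control libraries. Other scalings came from edgeR 4.0.16 (TMM) and DESeq2 1.42.0 (size factors) in R 4.3.3. Every site of both windows is named; those of at least 5 RPM have their reads in every library. The members and lists were chosen with earlier results of these data known. The targeted genes were not analysed here.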

Additional observations from a re-analysis of the deposited data

How the results depend on the processing

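Spread between cultures is unknown, and thin counts limit the chromosome 15 plus strand, H19, KCNQ1 and CDKN1C. No paired analysis was possible because each group had 1 library. Leaving out positions before A-rich stretches was not run. The TMM factors were 1.08, 0.910, 1.06 and 0.963 in the CF Im 68, CstF-64, control siRNA and no siRNA libraries.

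On the chromosome 15 plus strand, the log2 ratios to control siRNA were -0.72 for CF Im 68 siRNA and -0.82 for CstF-64 siRNA. Without positions of 1 read they were -1.51 and -1.61, without the most used position 0.037 and -0.060, and over no siRNA 0.96 and 0.87. On the chromosome 15 minus strand, CstF-64 siRNA over control siRNA was 0.16, against 0.38 with TMM factors and 0.41 with DESeq2 size factors. On the chromosome 11 plus strand it was -0.12, against 0.093 with TMM and 0.12 with DESeq2, while CF Im 68 siRNA was -0.09, against -0.16 without the most used position. On the chromosome 11 minus strand, CF Im 68 siRNA was -0.80, against -1.14 without positions of 1 read and -0.46 without the most used position, and CstF-64 siRNA was -1.21, against -1.62 without positions of 1 read.

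The minus-strand share was also taken without positions of 1 read, left out library by library. In the CF Im 68, CstF-64, control siRNA and no siRNA libraries it was 97.9%, 98.1%, 93.6% and 99.7% on chromosome 15. On chromosome 11 it was 3.06%, 2.27%, 6.13% and 5.57%. The most used position then held 47.5% of reads on the chromosome 15 plus strand, 20.6% on its minus strand and 34.4% on the chromosome 11 minus strand.

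Called higher after CF Im 68 siRNA was 1 member site with TMM and with DESeq2, instead of 2 (2597 and 2579 of all 33723). Called lower were 2 member sites with a 1.5-fold limit instead of 1 (2476 of all 33723), and 2 loci with that limit or control siRNA alone instead of 1 (1255 and 795 of all 17877). After CstF-64 siRNA, 3 member sites were called lower with DESeq2 instead of 4, and 3 loci against control siRNA alone instead of 2 (1208 of all sites and 1892 of all loci). At a limit of 20 reads, 1 member pair moved toward the 5′ site instead of 0 (1450 of all 6119), and 2 first-site shares instead of 1 (1625 of all 6165). With a limit of 20 points, 0 first-site shares moved. For UBE3A, the pair share in CstF-64 siRNA minus control siRNA was 0.93 points, against -0.568 with clusters of 10 nt. At CD81 site 3, CstF-64 siRNA over control siRNA was -0.10, against 0.11 with TMM and 0.14 with DESeq2. On the chromosome 15 minus strand, the log2 ratio of CF Im 68 siRNA was 0.11 over control siRNA and -0.032 over no siRNA. The cause of these shifts was not tested.

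Genome-wide counts moved by over 1.5 times with some settings. After CF Im 68 siRNA, 2890 sites (2579 to 5556) and 897 loci (475 to 2303) were higher, and 583 sites (563 to 2476) and 332 loci (226 to 1255) lower. Toward the 5′ site moved 1161 pairs (491 to 1624) and 1339 first-site shares (530 to 1917), and away from it 126 (26 to 264) and 99 (20 to 228). After CstF-64 siRNA, 557 sites (532 to 2096) and 325 loci (129 to 1453) were higher, and 1709 sites (1208 to 5029) and 1092 loci (762 to 3028) lower. Toward the 5′ site moved 393 pairs (110 to 632) and 316 first-site shares (77 to 558), and away from it 172 (49 to 308) and 149 (32 to 285).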

Other observations

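Outside the 14 sites, the windows held 470 weak clusters, of which 347 had 1 read, 87 had 2 to 4 reads and 36 had at least 5 reads over the 4 libraries. Weak clusters made up 56.6% of the reads of the chromosome 11 minus strand after CF Im 68 siRNA (49.4 to 63.6%), 53.5% after CstF-64 siRNA (42.4 to 64.3%), 35.3% after control siRNA (30.3 to 40.4%) and 32.9% without siRNA (28.0 to 38.0%). Their summed level on that strand was 8.76, 6.26, 9.52 and 7.47 RPM in the 4 libraries, so the depleted libraries lay on both sides of the no siRNA library. On the chromosome 15 minus strand the share was 13.2%, 13.04%, 16.6% and 10.5%, and on the chromosome 11 plus strand 1.0%, 1.10%, 1.15% and 0.658%. Over the whole genome, reads outside sites made up 10.5%, 7.01%, 7.69% and 5.82% of the libraries. Sites were taken only on the autosomes and X. Mitochondrial reads, which could not lie in a site, made up 3.75%, 1.79%, 1.53% and 1.17% of the same libraries.

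Several weak clusters were listed in every library. A minus-strand cluster at base 2419371 of chromosome 11, which lay 343 nt past the last CD81 site on the opposite strand, had 10, 4, 12 and 18 reads after CF Im 68 siRNA, CstF-64 siRNA, control siRNA and no siRNA. Another at base 2356351 had 11, 3, 4 and 1 reads, and one at base 2909328 had 3, 3, 8 and 14 reads. On the chromosome 15 minus strand, the cluster at base 25174798 had 12, 4, 9 and 10 reads. Upstream of UBE3A site 1, by 10743 to 25229 nt, 5 clusters of at least 5 reads had 19, 8, 18 and 13 reads together in the 4 libraries.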
